A study of Homo sapiens with 4 samples.

Results

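GATA3 binding was examined at 10 genes of fibroblast growth factor (FGF) signalling, chosen by name: the ligand genes FGF2, FGF4, FGF8, FGF10, FGF17 and FGF19 and the receptor genes FGFR1, FGFR2, FGFR3 and FGFR4. They are 10 of the 20033 protein-coding genes in the annotation used. The data come from H1, an established human embryonic stem cell (hESC) line, grown on Matrigel in mTeSR1 medium and given BMP4 at 50 ng/ml for 6 h. GATA3, a transcription factor, was immunoprecipitated from fixed chromatin and the DNA sequenced (ChIP-seq) in 2 biological replicates. Of the 4 samples of the series, the other 2 are input chromatin from cells treated in the same way. Every sample received BMP4, so no comparison with untreated cells was made, and 1 cell line stands for hESCs.

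The deposited peak lists gave 18456 positions on the chromosomes in replicate 1 and 12782 in replicate 2, without a height or a q-value. A position was taken as belonging to a gene if it was no more than 100 kb from the 5′ end, or anywhere inside the gene. Carrying the gene's symbol in the list also qualified, but this brought in 0 further positions in replicate 1 and 0 in replicate 2. Where a position had a partner in the other replicate no more than 100 bp away, the pair formed a shared region, and the chromosomes held 9145 of these. Where a position is called upstream or downstream, the direction is that of the gene's transcription.

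FGFs are secreted proteins that bind receptor tyrosine kinases at the cell surface, with heparan sulphate or Klotho proteins as coreceptors. Bound receptors phosphorylate the adaptor FRS2 and signal largely through RAS and the MAP kinases, and the response is limited by inhibitors such as the Sprouty proteins and DUSP phosphatases that FGF signalling itself induces. In hESC culture, FGF2 in the medium helps to keep cells pluripotent, and in the gastrulating embryo FGF ligands act beside BMP, WNT and Nodal signals in the formation of mesoderm.

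The windows of the 10 genes held 9 distinct shared regions, 7 at ligand genes and 2 at receptor genes. Regions lay in the windows of 4 of the 6 ligand genes, namely FGF2, FGF4, FGF10 and FGF19. The same held for 2 of the 4 receptor genes, FGFR1 and FGFR4. With 6 of 10 genes in all, this is to be read against the 47.5% of all protein-coding genes that had a shared region by the same rule. FGF8, FGF17, FGFR2 and FGFR3 had none. The members and lists were chosen with results of these data already known, so counts are given without a test.

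The sequences of 5 shared regions are shown because they cover regions close to the 5′ ends of FGF2 and FGF3, the pair at FGF10 and the single region at FGFR4. Each is 121 bases of hg38, plus strand, read 5′ to 3′ and centred between the replicate positions, so motif matches more than 60 bp out are not included. Capitals mark the GATA motif, taken as AGATAA or AGATAG, or else TGATAA or TGATAG, on either strand.
FGF2, 0.49 kb upstream (chr4:122826136-122826256): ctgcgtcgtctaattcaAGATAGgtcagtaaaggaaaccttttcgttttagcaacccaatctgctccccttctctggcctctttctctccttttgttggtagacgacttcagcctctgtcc
FGF3, 0.367 kb upstream, and 44.44 kb upstream of FGF4 (chr11:69819723-69819843): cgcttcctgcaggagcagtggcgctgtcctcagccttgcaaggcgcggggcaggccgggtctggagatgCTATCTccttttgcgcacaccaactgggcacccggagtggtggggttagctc
FGF10, 43.61 kb downstream in intron 1 (chr5:44346031-44346151): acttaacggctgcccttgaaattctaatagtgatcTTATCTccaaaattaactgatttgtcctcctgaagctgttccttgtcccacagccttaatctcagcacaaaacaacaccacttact
FGF10, 53.64 kb upstream (chr5:44443289-44443409): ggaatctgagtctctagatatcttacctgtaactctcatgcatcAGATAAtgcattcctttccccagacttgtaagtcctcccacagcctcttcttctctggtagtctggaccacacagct
FGFR4, 80.94 kb upstream (chr5:177005903-177006023): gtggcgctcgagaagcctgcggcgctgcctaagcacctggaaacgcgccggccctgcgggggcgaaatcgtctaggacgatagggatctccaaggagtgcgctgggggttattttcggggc

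**Figure D1:**
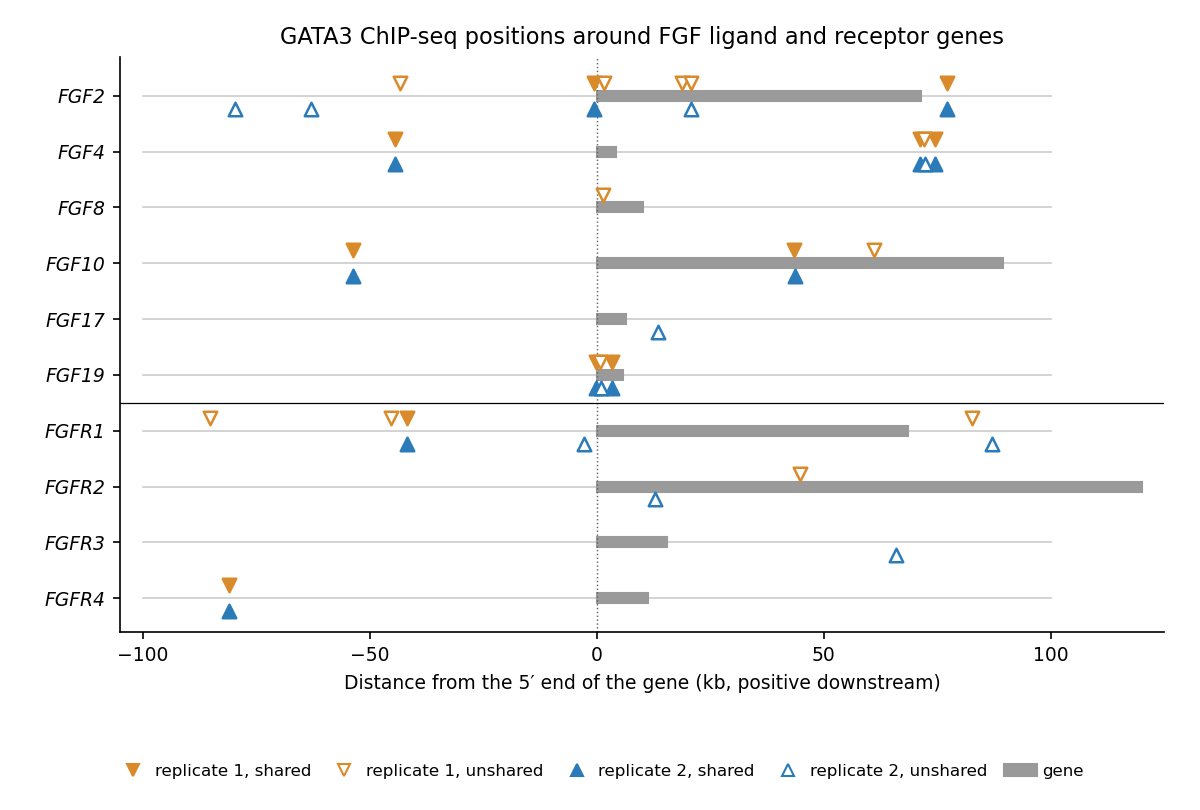
Positions of GATA3 ChIP-seq peaks around each gene, by distance from its 5′ end in kb (negative upstream, positive downstream); triangles above the line are replicate 1 and below it replicate 2, filled where shared within 100 bp and open where not, and grey bars are the genes. Filled pairs sit at the 5′ ends of FGF2 and FGF19 while the nearest filled pair to a receptor's 5′ end is 41.8 kb away, at FGFR1. The 3 positions right of FGF4 are those seen at FGF19.

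FGF2 encodes basic FGF, the ligand supplied in hESC medium. The gene is read from the plus strand of chromosome 4, positions 122826682 to 122898236. Replicate 1 had 6 positions in its window and replicate 2 had 5, the most of the 10 genes in each replicate, and they formed 2 shared regions. The first was at 122826200 in replicate 1 and 122826193 in replicate 2, 7 bp apart, and its centre lay 0.486 kb upstream of the gene's 5′ end and 0.635 kb upstream of the canonical transcript's start. Of all protein-coding genes, 1.39% had a shared region at that distance or nearer. The second, at 122903886 and 122903902, lay 77.2 kb downstream in intron 3 of NUDT6, a gene that overlaps the 3′ end of FGF2 on the opposite strand, and the nearest 5′ end was that of NUDT6, 19.1 kb away.

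Both replicates also had positions in FGF2 that did not pair at 100 bp. In intron 1, replicate 1 had positions at 122828295, 122845508 and 122847586, and replicate 2 had 1 at 122847404. The last of each list were 182 bp apart, 20.9 and 20.7 kb from the 5′ end. The window of 201 bp around the position of replicate 1 held 12 matches to the GATA motif, which run together in a tandem repeat, while that of replicate 2 held 0. Of all positions in replicate 1, 0.282% had 12 or more matches. The repeat is shown because it is the densest run of GATA motifs at any of the 10 genes.
FGF2 intron 1, unshared position of replicate 1 (chr4:122847526-122847646): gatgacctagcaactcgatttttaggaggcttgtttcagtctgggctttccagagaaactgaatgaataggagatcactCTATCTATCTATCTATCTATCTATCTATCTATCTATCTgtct
Upstream of FGF2, replicate 1 had 122783347 and replicate 2 had 122746985 and 122763659, with 19.7 kb or more between positions of different replicates.

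FGF19 encodes an endocrine FGF that restrains bile acid synthesis in the liver through FGFR4 and the coreceptor KLB. The gene is read from the minus strand of chromosome 11, positions 69698238 to 69704022. Each replicate had 3 positions in its window, and all lay within 3.33 kb of the 5′ end. A shared region at 69704095 in replicate 1 and 69704101 in replicate 2 was centred 0.076 kb upstream of the 5′ end, the shortest distance among the 10 genes, and 0.20% of protein-coding genes had one at that distance or nearer. A second, at 69700732 and 69700690, was 3.31 kb downstream in intron 2. The remaining positions, 69703210 in replicate 1 and 69703018 in replicate 2, were also in intron 2 and 192 bp apart, and so counted as unshared. The authors' lists gave the name FGF19 to all of these positions in both replicates.

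FGF4 encodes a ligand made by the pluripotent cells of the early embryo, and its gene occupies 69771022 to 69775341 on the same strand of chromosome 11. Its 5′ end is 71.3 kb from that of FGF19 and 44.1 kb from that of FGF3, so their windows overlap. With 4 positions in each replicate and 3 shared regions, it had the highest count of shared regions of the 10 genes, and 5.80% of all protein-coding genes had as many or more. However, 2 of the 3 are the regions at FGF19. The third, at 69819798 and 69819768 in the 2 replicates, was 44.4 kb upstream of FGF4 and only 0.367 kb upstream of FGF3. No position of either replicate was nearer to the FGF4 5′ end than these, and no position in the lists carried its name.

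FGF10 encodes a ligand that signals from mesenchyme to epithelium, chiefly through FGFR2, in limb and lung development. The gene (chromosome 5, 44300247 to 44389706, minus strand) was the only ligand gene with no other protein-coding 5′ end in its window. Of 3 positions in replicate 1 and 2 in replicate 2, all but 1 were shared. One region, at 44346117 in replicate 1 and 44346066 in replicate 2, lay 43.6 kb downstream of the 5′ end in intron 1. The other, at 44443381 and 44443318, lay 53.6 kb upstream. The replicate positions were 51 and 63 bp apart, the widest pairs among the 9 regions, so at a limit of 50 bp FGF10 had 0 shared regions. The unshared position of replicate 1, 44328504, was in intron 1 as well, 17.6 kb from the nearest of replicate 2.

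FGF8 and FGF17, closely related ligands with roles in gastrulation and in patterning the midbrain, had 1 position each and 0 shared regions. At FGF8, replicate 1 had 101778968 on chromosome 10, inside the annotated gene and 1.40 kb downstream of its 5′ end, and replicate 2 had none. The canonical transcript starts farther in, at 101776114 on the minus strand, so the position of replicate 1 lay upstream of that start. The nearest position of replicate 2 was 190 kb away. At FGF17, replicate 2 had 22055823 on chromosome 8, 13.4 kb downstream of the 5′ end in the neighbouring gene DMTN, and the nearest position of replicate 1 was 311 kb away. Neither position had a GATA motif within 100 bp. The nearest shared region was 342 kb from the 5′ end of FGF8 and 399 kb from that of FGF17, distances that 84.3% and 87.9% of protein-coding genes did not exceed.

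**Figure D2:**
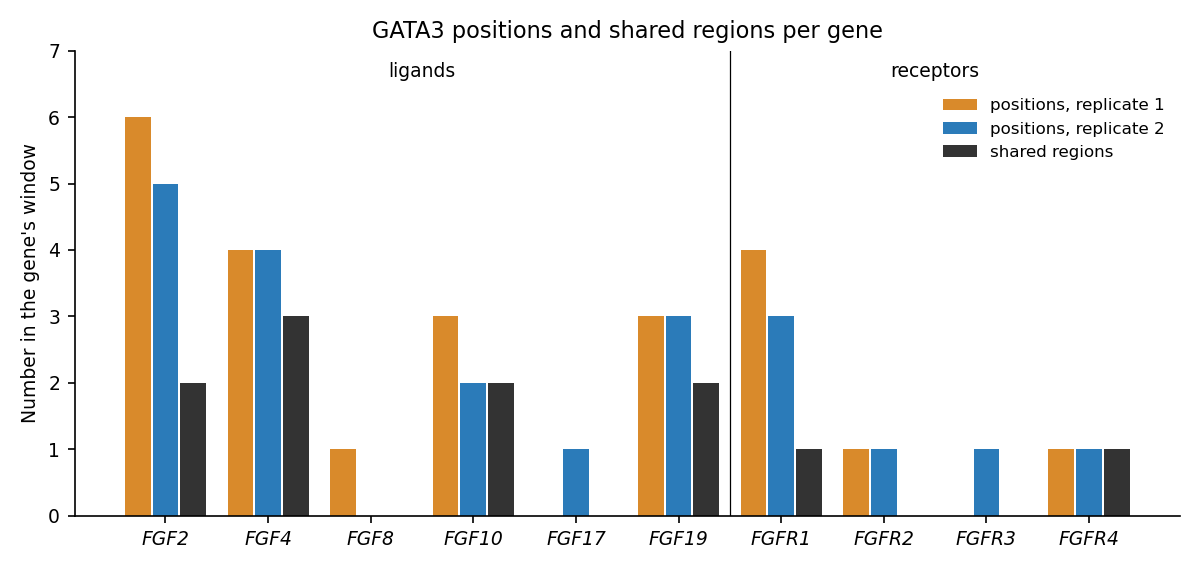
Number of GATA3 positions in replicate 1, in replicate 2 and of shared regions in the window of each gene (bars, vertical axis). FGF2 has the most positions (6 and 5), FGF4 the most shared regions (3, of which 2 are those of FGF19), and 4 genes have no shared region.

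The receptors are single-pass tyrosine kinases. FGFR1, a receptor of FGF2, is encoded on chromosome 8 (38400215 to 38468834, minus strand). Replicate 1 had 4 positions in its window and replicate 2 had 3. The only shared region, at 38510593 and 38510594, was intergenic, 41.8 kb upstream, and FGFR1 had the nearest protein-coding 5′ end. Replicate 2 alone had a position close to the gene, 38471654, which lay 2.82 kb upstream, and the nearest position of replicate 1 was 38.9 kb from it. The others of replicate 1 were 38386171, 38514045 and 38553923, and that of replicate 2 was 38381754, with at least 3.45 kb to the nearest position of the other replicate.

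FGFR4, the receptor for FGF19 in liver, is encoded on chromosome 5 (177086905 to 177098144, plus strand). It had 1 position in each replicate, 177005954 and 177005973, and these formed its shared region. The region was in intron 1 of UIMC1, whose 5′ end is nearer, at 16.7 kb. FGFR3, a receptor that restrains the growth of cartilage, is encoded on chromosome 4 (1793293 to 1808872, plus strand). It had 0 positions in replicate 1 and 1 in replicate 2, at 1859244, 66.0 kb downstream and carrying the name of LETM1. The nearest shared region was 385 kb from the FGFR3 5′ end.

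FGFR2, the receptor for FGF10 on epithelia in its IIIb form, has the longest of the 10 genes (chromosome 10, 121478332 to 121598458, minus strand). Each replicate had 1 position in the gene body, at 121553685 in intron 4 in replicate 1 and at 121585582 in intron 2 in replicate 2. They were 31.9 kb apart and formed no shared region. The position of replicate 2 had 4 GATA motifs within 100 bp, a number reached by 2.03% of positions in that replicate. It is shown as the receptor position with the most motif matches.
FGFR2 intron 2, unshared position of replicate 2 (chr10:121585522-121585642): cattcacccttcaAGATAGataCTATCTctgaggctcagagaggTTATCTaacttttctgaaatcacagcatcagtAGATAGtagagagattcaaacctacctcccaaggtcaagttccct
The nearest shared region lay 101 kb upstream of FGFR2, just outside the limit of 100 kb, whereas that of FGFR4, 80.9 kb upstream, was the farthest region inside it.

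Ligand and receptor genes were then compared. Ligand genes had a mean of 1.5 shared regions per gene and receptor genes 0.5, against 0.741 over all protein-coding genes. Counting each region once, there were 7 in the 1.07 Mb of ligand windows, or 6.53 per Mb (exact Poisson 95% interval 2.63 to 13.5). Receptor windows had 2 in 0.820 Mb, or 2.44 per Mb (0.295 to 8.81). The intervals overlap, both include the 3.11 per Mb of the chromosomes outside gaps, and they cover counting error only. The ligand and receptor densities could thus not be told apart at these counts. Taking any position of 1 replicate, 5 of 6 ligand genes and 3 of 4 receptor genes had one in replicate 1, and 5 of 6 and 4 of 4 in replicate 2. By the same measure the share of all protein-coding genes was 68.5% for replicate 1 and 57.2% for replicate 2.

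The groups were also compared by distance from the 5′ end. Within 1 kb, a distance chosen after the data were seen, 2 of 6 ligand genes, FGF2 and FGF19, had a shared region. At that distance 0 of 4 receptor genes and 2.42% of all protein-coding genes did. Within 10 kb or in the gene body the counts were 3 of 6 and 0 of 4, against 19.0%. FGF10 was the gene added, through its intronic region 43.6 kb from the 5′ end. At 50 kb they were 4 of 6 and 1 of 4, against 32.3%, and at 100 kb 4 of 6 and 2 of 4. The nearest shared region was a median of 44.03 kb from the 5′ end for ligand genes and 91.0 kb for receptor genes, against 118 kb for all protein-coding genes. Distances ran from 0.076 to 399 kb among ligands and from 41.8 to 385 kb among receptors, so the ranges overlap for most of their length. The genes are few, and FGF4 and FGF19 share a locus.

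**Figure D3:**
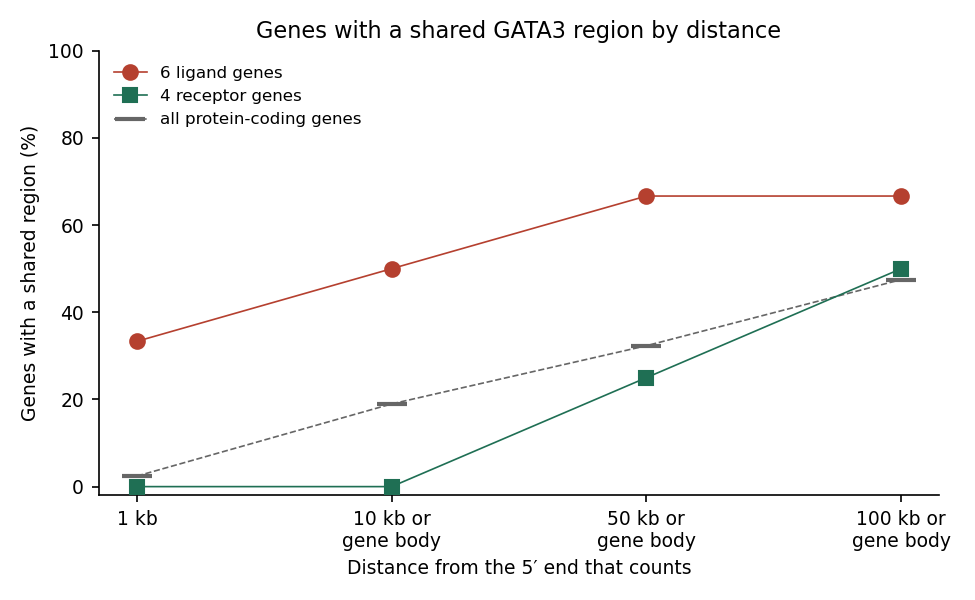
Percent of the 6 ligand genes, the 4 receptor genes and all protein-coding genes with a shared region, by the distance from the 5′ end that counts (the gene body counts as well, except at 1 kb). At 1 kb the values are 33.3% of ligand genes, 0% of receptor genes and 2.42% of all genes, and at 100 kb 66.7%, 50% and 47.5%. The 1 kb distance was chosen after the data were seen.

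**Figure D4:**
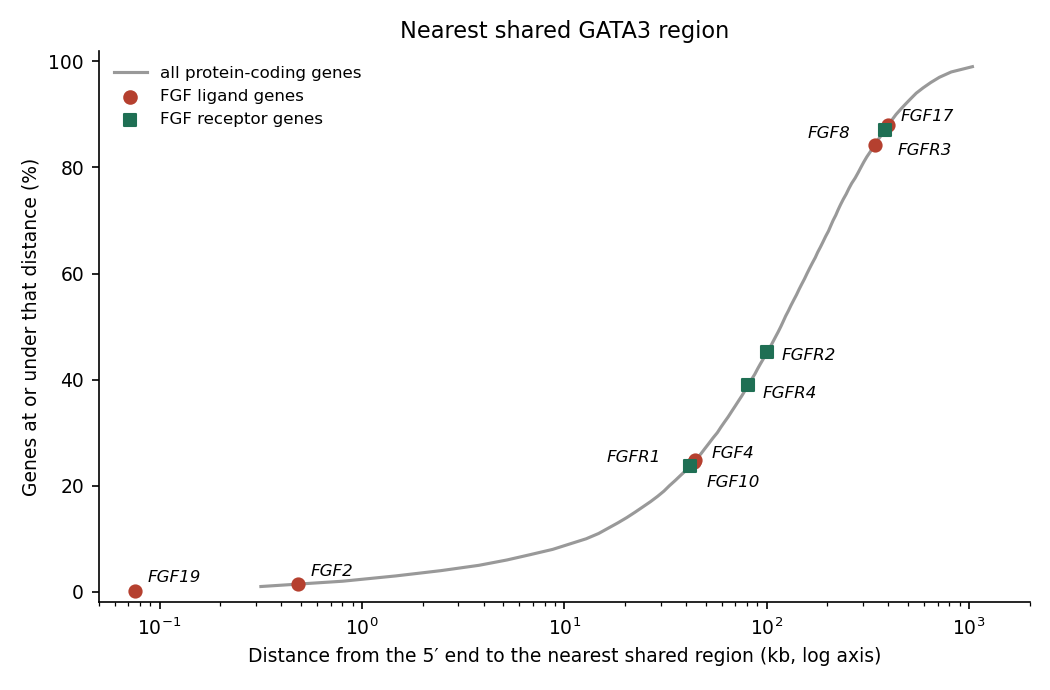
Distance from the 5′ end to the nearest shared region (horizontal log axis, kb) against the percent of protein-coding genes at or under that distance; the grey line covers the 1st to the 99th percentile of all genes. FGF19 and FGF2 stand at the near end, at 0.076 and 0.486 kb, and FGF8, FGFR3 and FGF17 at the far end, at 342, 385 and 399 kb.

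Agreement between the replicates at the 10 genes was examined because the study carried forward only peaks seen in both. Of 20 positions of replicate 1 in the windows, 9 (45%, 95% Wilson interval 25.8 to 65.8) had a partner within 100 bp, against 49.6% over all chromosomes. In replicate 2 the share was 9 of 18 (50%, 29.0 to 71.0), against 71.5% over all chromosomes. Ligand windows had 7 of 14 positions shared in replicate 1 and 7 of 12 in replicate 2. Receptor windows had 2 of 6 in each. Paired positions were between 1 and 63 bp apart, with a median of 19 bp against 23 bp for all shared regions.

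GATA factors bind a short sequence with GATA at its core, and its presence in the 9 regions was compared with all shared regions. Within 100 bp of the centre, 7 of 9 regions (77.8%, 95% Wilson interval 45.3 to 93.7) held at least 1 of the motif forms defined above, against 82.0% of all shared regions. By group this was 6 of 7 ligand regions and 1 of 2 receptor regions. The regions held 11 matches in all, 6 of AGATAA, 4 of AGATAG, 1 of TGATAA and 0 of TGATAG. The upstream FGF10 region had the most, with 3, and the intronic regions of FGF10 and FGF19 had 2 each. In 6 regions the middle of a match lay within 41 bp of the centre. The FGF10 pair, the FGF2 region near NUDT6 and the FGFR1 region carry AGATAA. The FGF2 region at the 5′ end carries AGATAG, 40.5 bp from its centre. AGATAG is also in the upstream FGF10 region, the intronic FGF19 region and the region close to the FGF3 5′ end.

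**Figure D5:**
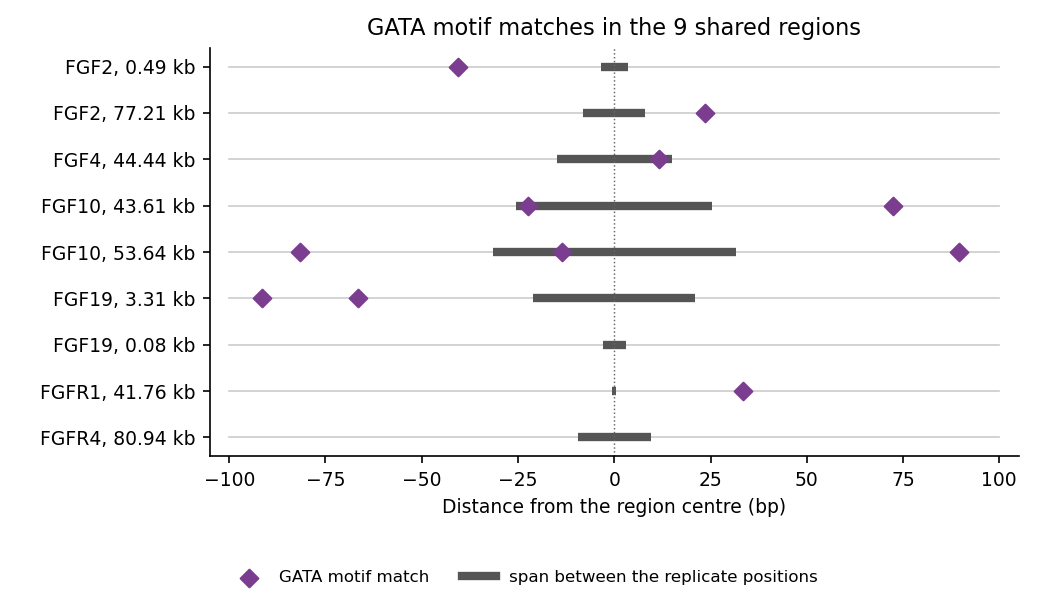
Matches to the GATA motif (diamonds) in the 201 bp around the centre of each of the 9 shared regions, by distance from the centre in bp along the plus strand; thick bars span the replicate positions, and labels give the gene and the distance from its 5′ end. The FGF19 region at 0.08 kb and the FGFR4 region have none, and 6 regions have a match within 41 bp of the centre.

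The regions without a motif, at the FGF19 5′ end and upstream of FGFR4, were both rich in CpG. Each had 19 CpG dinucleotides in 201 bp, with a GC content of 71.1% at FGF19 and 60.7% at FGFR4. The region beside FGF3 had a GC content of 67.7% and 16 CpG, with 1 match. The other 6 regions had between 0 and 7 CpG. Among all shared regions, 51.6% of the 426 with 10 or more CpG held the motif (95% Wilson interval 46.9 to 56.4), against 83.5% of those with fewer. Both regions without a motif did hold the bare letters GATA on 1 strand, as did 92.6% of all shared regions. Unshared positions at the 10 genes held the motif in 8 of 11 cases in replicate 1 and in 4 of 9 in replicate 2, against 73.1% and 67.2% of all unshared positions in these replicates.

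Motifs of other factors were counted in the same windows of 201 bp on both strands. The SMAD letters GTCTG, bound by effectors of BMP and Nodal signals, were in 3 of 9 regions, all at ligand genes, against 36.2% of all shared regions. The TEAD letters GGAATG were in 1 of 9, against 18.9%, and the GC box GGGCGG in 1 of 9, against 5.31%. The octamer of pluripotency factors, ATGCAAAT, was in 0 of 9, against 5.10%. The SOX letters ACAAAGG or ACAATGG were in 0 of 9, against 13.3%, and the AP-1 letters TGACTCA in 0 of 9, against 5.66%. With 9 regions, a count of 0 has an upper Wilson bound of 29.9%, so these shares could not be told from those of all regions.

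Other genes of the pathway were counted by the same window, using a list of 52. Of these, 31 had a shared region (59.6%, against 47.5% of all protein-coding genes), and 18 had one within 10 kb or in the gene body (34.6% against 19.0%). The feedback inhibitors held regions most often among the larger groups, with 8 of 11 genes, and 6 of 11 within 10 kb or in the gene body. SPRY3 and IL17RD, named after their values were seen, count within 10 kb only through the gene body. For IL17RD the nearest region lay 39.3 kb downstream of the 5′ end, inside the gene. For SPRY3 the nearest lay 55.9 kb upstream, outside the gene, so SPRY3 counts through its other region. DUSP5, a phosphatase of ERK, had 4, and the nearest lay 1.79 kb downstream of its 5′ end. SPRED2, an inhibitor of RAF activation, had 3, the nearest 0.485 kb downstream, and DUSP4 had 3. SPRY4, singled out after its values were seen, had a region 0.118 kb downstream of its 5′ end. Of the target transcription factors 3 of 5 had regions, with 3 at FOS and 2 each at ETV1 and ETV4, and EGR1 and ETV5 had 0.

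Adaptors and kinases stood near the background, with 8 of 17. SOS1 and SHC1, which link the receptors to RAS, had 2 each. Among the ligands outside the 10 genes, 6 of 12 had a region, with 3 at FGF7, 2 at FGF3 and 1 at FGF16. The intracellular FGF homologous factors, which are not secreted, had regions at 4 of 4 genes, 2 of them at FGF14 and 1 each at FGF13 and FGF11. The gene bodies of FGF13 and FGF14, 608 and 692 kb long, count as a whole under the rule. FGF12, named after its values were seen, is 628 kb long, and its 1 region counts only through the gene body. FGF11 is 6.67 kb long and its region lay 84.9 kb from the 5′ end. Of the decoy receptor and coreceptors, FGFRL1 and KL had 1 each and KLB had 0.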

How the data were processed

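The values used were peak positions in the lists the authors deposited for each GATA3 ChIP replicate. According to the study's methods, reads were trimmed with cutadapt, aligned to hg38 with bowtie, freed of duplicates with Picard and of multiply mapped and blacklisted reads, and peaks were called with MACS2 (q 0.05) in each replicate against its own input. Each line held 1 position, as start and end, and a gene name. Set against the number of peaks in those methods, the list of replicate 1 had more lines and that of replicate 2 had fewer. The reason is not given in the sources used here. How a peak was reduced to 1 position was not given in the sources used here, and the lists hold no read depth. No peak height or signal track was used.

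Duplicate positions were merged, and the 24 chromosomes were compared with hg38 and GENCODE release 44. Linked positions within 100 bp formed 1 region, centred on the mean of the replicate means. Motifs were searched on both strands within 100 bp. Counts are given with exact Poisson or 95% Wilson intervals, which cover counting error over positions only; no test was run. Members and lists were chosen with earlier results of these data known. All 10 genes are named, with up to 3 of the genes with most regions per pathway group, ties going to the shorter distance. One gene that this rule names and 1 sequence are not reported here. Scripts were tested on simulated lists (matplotlib 3.10.9, pandas 2.3.3, scipy 1.17.1 and numpy 2.4.6, under Python 3.11.15).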

Additional observations from a re-analysis of the deposited data

How the results depend on the processing

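No paired analysis was possible because lists of the ChIP samples alone were used here and the values come from counts rather than a test. The window of 1 kb was chosen after seeing the data. Of 59 values recomputed under the alternatives, leaving out those of single genes, 34 stayed within their spread or within 1.5 times the count and 25 moved. Of 80 counts for single genes 22 moved.

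Ligand genes with a shared region fell to 2, and their regions to 2, with a window of 1 kb, and the regions to 4 at 10 kb. Receptor genes with a region, and receptor regions alike, were 1 at 50 kb and 0 at 10 kb and at 1 kb. When a region counted only for the gene with the nearest 5′ end, receptor genes and regions were 1 each and ligand genes were 3, against 21.7% of all protein-coding genes. With 1 replicate left out, positions took the place of regions: ligand genes were 5 either way, ligand positions 12 to 14, receptor genes 3 to 4 and receptor positions 6 either way. AGATAA alone was in 44.4% of the 9 regions. With partners up to 250 bp apart the pairs in FGF2 intron 1 and FGF19 intron 2 were shared as well, which gave 9 ligand regions. At 50 bp FGF10 had none, which left 3 ligand genes. Peak heights were not analysed here, so a strong and a weak peak count alike.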
